A study of Glycyrrhiza uralensis with 24 samples.

Results

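Of 34445 gene IDs measured in licorice (Glycyrrhiza uralensis) seedlings, 40 stood higher after 2 h in salt than without salt both in aerial parts (stems and leaves) and in roots, and these 40 IDs are described here. They were chosen from the measured values. The rows of an ID were summed in TPM, a transcript abundance that is scaled by transcript length and by the library's total. An ID was taken as raised (state U) when all 3 salt libraries of an organ lay above all 3 of its controls, the group mean plus 1 was at least 3 times that of the controls, and the larger mean reached 10 TPM. State D is the mirror image and N is everything else. State U at 2 h held for 260 IDs in aerial parts (0.755% of all IDs) and 298 in roots (0.865%), and for 40 in both (0.116%). Since these libraries made the choice, the 2 h values are a description and carry no test. The seedlings were 60 days old. Controls at 0 h are labelled as kept in distilled water, and the salt groups as kept in MS nutrient solution with 150 mM NaCl for 2, 6 or 12 h, which one protocol line also calls simulated drought. Each of the 8 groups of organ and time has 3 libraries. Controls exist for 0 h alone and their medium differs as well, so against controls the effects of salt, medium and time of day cannot be told apart. Whether libraries came from separate plants is not in the labels, and a p-value here reflects the spread among libraries, which may be technical.

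As background, a plant root in saline medium first meets a drop in water potential and a calcium signal that travels to the shoot, and sodium builds up in the tissue later. Abscisic acid, the hormone of water deficit, accumulates in root and shoot and acts through receptors that hold back protein phosphatases and so release protein kinases. Many genes answer such a change only briefly, while others stay high for as long as the stress lasts. The files give IDs without names, so none of the 40 can be placed in such a pathway and no roles are given.

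The 40 IDs were a small share of each library without salt and a larger one at 2 h. Their summed level was 715, 622.6 and 671.2 TPM in the 3 aerial controls and 3870.5, 5779.1 and 5163 TPM at 2 h. In roots it was 574, 544.9 and 541.1 TPM in controls and 2250.4, 2279 and 5711.8 TPM at 2 h. Root replicate 3 at 2 h thus stood far above its partners, whereas no aerial library at 2 h stood apart to that degree. At 6 h the sums were 1311.7, 1191.3 and 1635.3 TPM in aerial parts and 1169.9, 806.8 and 1299.9 TPM in roots. At 12 h they were 951.4, 919.8 and 985.9 TPM in aerial parts and 1242, 1624.1 and 964.3 TPM in roots. In both organs every library at 6 h and 12 h lay above every control of that organ and below every library at 2 h. Such sums weigh the most abundant IDs. In aerial parts the mean of Glyur000574s00030981 was 144.4 TPM in controls and 279.6 TPM at 12 h. That of Glyur001108s00026762 was 95.38 TPM in controls and 208.5 TPM at 12 h. The aerial means of 17 of the 40 IDs at 12 h lay below their control means. On the log2 scale 22 of the 40 lay above controls at 12 h, where 45.4% of all genes tested did.

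**Figure D1:**
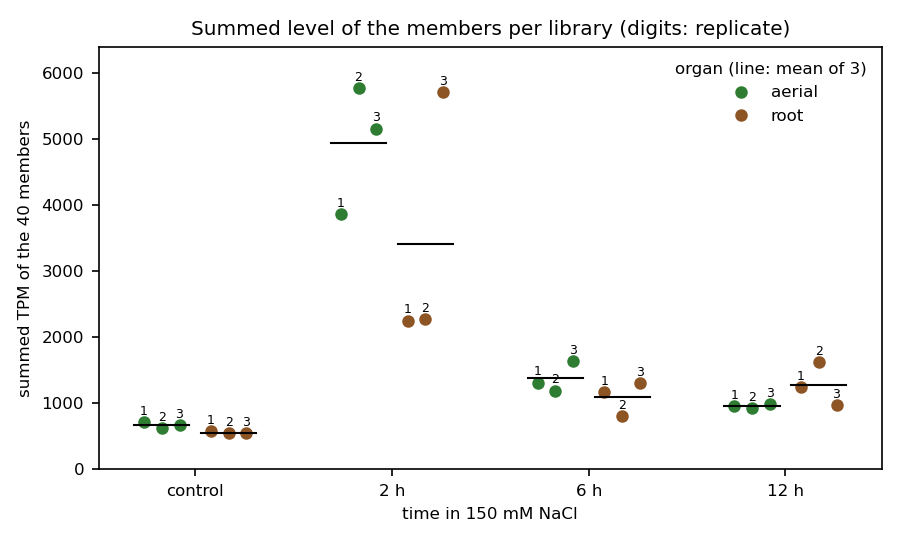
Summed TPM of the 40 IDs in each of the 24 libraries (points, with the replicate number) by time in 150 mM NaCl, aerial parts in green and roots in brown, with the mean of 3 libraries as a short black line. The sums peak at 2 h in both organs, the time at which the rule chose the IDs. Root replicate 3 at 2 h reaches 5711.8 TPM where its partners stand at 2250.4 and 2279.

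A few libraries bear on what follows. In root replicate 3 at 2 h, 30 of the 40 IDs (75% of them) had their highest value of that group, against 26.4% of all genes tested in roots. In 17 of them it was more than 2 times both other libraries. Without this library the rule gives 29 IDs, of which 23 are among the 40. Replicate 2 at 6 h correlated less with their partners than any other library, at 0.847 in aerial parts and 0.784 in roots (Pearson's r of log2(TPM + 1) with the mean of the other replicates across genes, which are not independent), against 0.885 to 0.954 elsewhere. In that root library 24 of the 40 IDs (60%) had the lowest value of their group, against 45% of genes tested. The median of the 40 IDs stood 0.13 above the root controls there on the log2 scale, and 1.17 and 1.09 in the other root libraries at 6 h. In aerial parts replicate 2 at 6 h stood at 0.77, and the others at 0.92 and 1.13. The part of these libraries in each result was examined by leaving them out, as given below.

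The size of the 2 h difference varied widely among the IDs. The ratio of the group means plus 1 ranged from 3.06 to 21.5 in aerial parts with a median of 4.95, and from 3.002 to 58.6 in roots with a median of 5.87. Mean levels at 2 h ran from 10.4 to 1930 TPM in aerial parts and from 11.2 to 537 TPM in roots. Just inside the threshold were Glyur000329s00019819, with a smaller ratio of 3.002, and Glyur000080s00008658, with 3.0555. Just outside were Glyur000003s00001144 at 2.9996 and Glyur000414s00030173 at 2.926.

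The most abundant ID at 2 h was Glyur000574s00030981. In aerial parts it stood at 169.57, 126.65 and 137.08 TPM in controls and at 1367.76, 2421.93 and 1988.75 TPM at 2 h. In roots it stood at 49.75, 55.67 and 42.36 TPM in controls and at 314.3, 293.13 and 108.1 TPM at 2 h. Root replicate 3 was the lowest of its group for this ID, unlike for most of the 40. It was also the lowest for Glyur001607s00029751, an ID with large ratios in both organs (20.4 in aerial parts, 19.1 in roots), which stood at 334.85, 227.54 and 37.34 TPM in roots at 2 h and at 273.99, 91.87 and 55.45 TPM in aerial parts. Its controls held 1.22, 8.31 and 8.27 TPM in aerial parts and 4.97, 3.27 and 20.32 TPM in roots. By contrast, the highest root mean at 2 h, that of Glyur000867s00025581, rested on replicate 3, with 131.66, 205.72 and 1272.71 TPM against 36.62, 29.58 and 28.63 TPM in controls. Glyur000740s00028693, the next in roots, showed the same feature, with 120.04, 186.65 and 679.81 TPM against 112.82, 70.91 and 75.55 TPM. Its lowest salt library lay close above its highest control.

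A pair of IDs, Glyur000123s00008468 and Glyur001734s00030845, held the same value in each of the 24 libraries, so the 40 IDs carry 39 distinct profiles. Over all IDs that reached 1 TPM in a library, 120 of 20802 (0.577%) shared every value with another ID. The reads behind such a pair cannot be split here, and both are counted below with that in mind. In aerial parts the pair stood at 3.83, 2.07 and 2.19 TPM in controls and at 54.66, 53.9 and 95.46 TPM at 2 h. In roots it stood at 0.11, 0 and 0.33 TPM in controls and at 4.61, 10.65 and 58.03 TPM at 2 h.

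The IDs shared little in how they are listed. They carry 39 different first number blocks, and the one pair with the same block, Glyur000315s00012763 and Glyur000315s00012764, is also next to each other in number. Both were listed at 0 in control replicates 2 and 3 of each organ. In control replicate 1 they stood at 7.78 and 15.73 TPM in aerial parts and at 2.51 and 10.51 TPM in roots. At 2 h the lower-numbered ID stood at 15.54 to 17.86 TPM in aerial parts and 9.53 to 13.81 TPM in roots, and the other at 31.2 to 38 TPM and 25.31 to 28.4 TPM. Whether the pair are near-identical copies that share reads was not tested. Of the 40 IDs, 35 have a single row per file (87.5%, against 88.5% of genes tested, those averaging 0.5 TPM or more), and the other 5 have up to 3 rows.

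After 2 h most of the 40 no longer met the rule. In aerial parts 2 were in state U at 6 h, where 0.186% of all IDs were, and 4 at 12 h (0.392% of all IDs). In roots 3 were in state U at 6 h (0.549% of all IDs) and 9 at 12 h (0.967% of all IDs). These comparisons share their controls with the rule, so a low control value favours state U at every time. In the other direction, the IDs were chosen for high 2 h values, so lower values at 6 h and 12 h are partly built in. The drop in these counts is therefore a description. In neither organ were 26 of the 40 in state U at 6 h or 12 h. Taking aerial parts and roots together at 12 h, 28 IDs were in state N in both, 7 were U in roots alone, 3 were U in aerial parts alone, 1 was U in both, and 1 was D in aerial parts (0.996% of all IDs were) and U in roots. Of the 258 IDs raised at 2 h in roots but not in aerial parts, 152 were in state U in roots at 12 h. Of the 220 raised at 2 h in aerial parts but not in roots, 16 were in state U in aerial parts at 12 h. These counts stand beside the 9 and 4 of 40 as a description, since the difference was not tested.

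**Figure D2:**
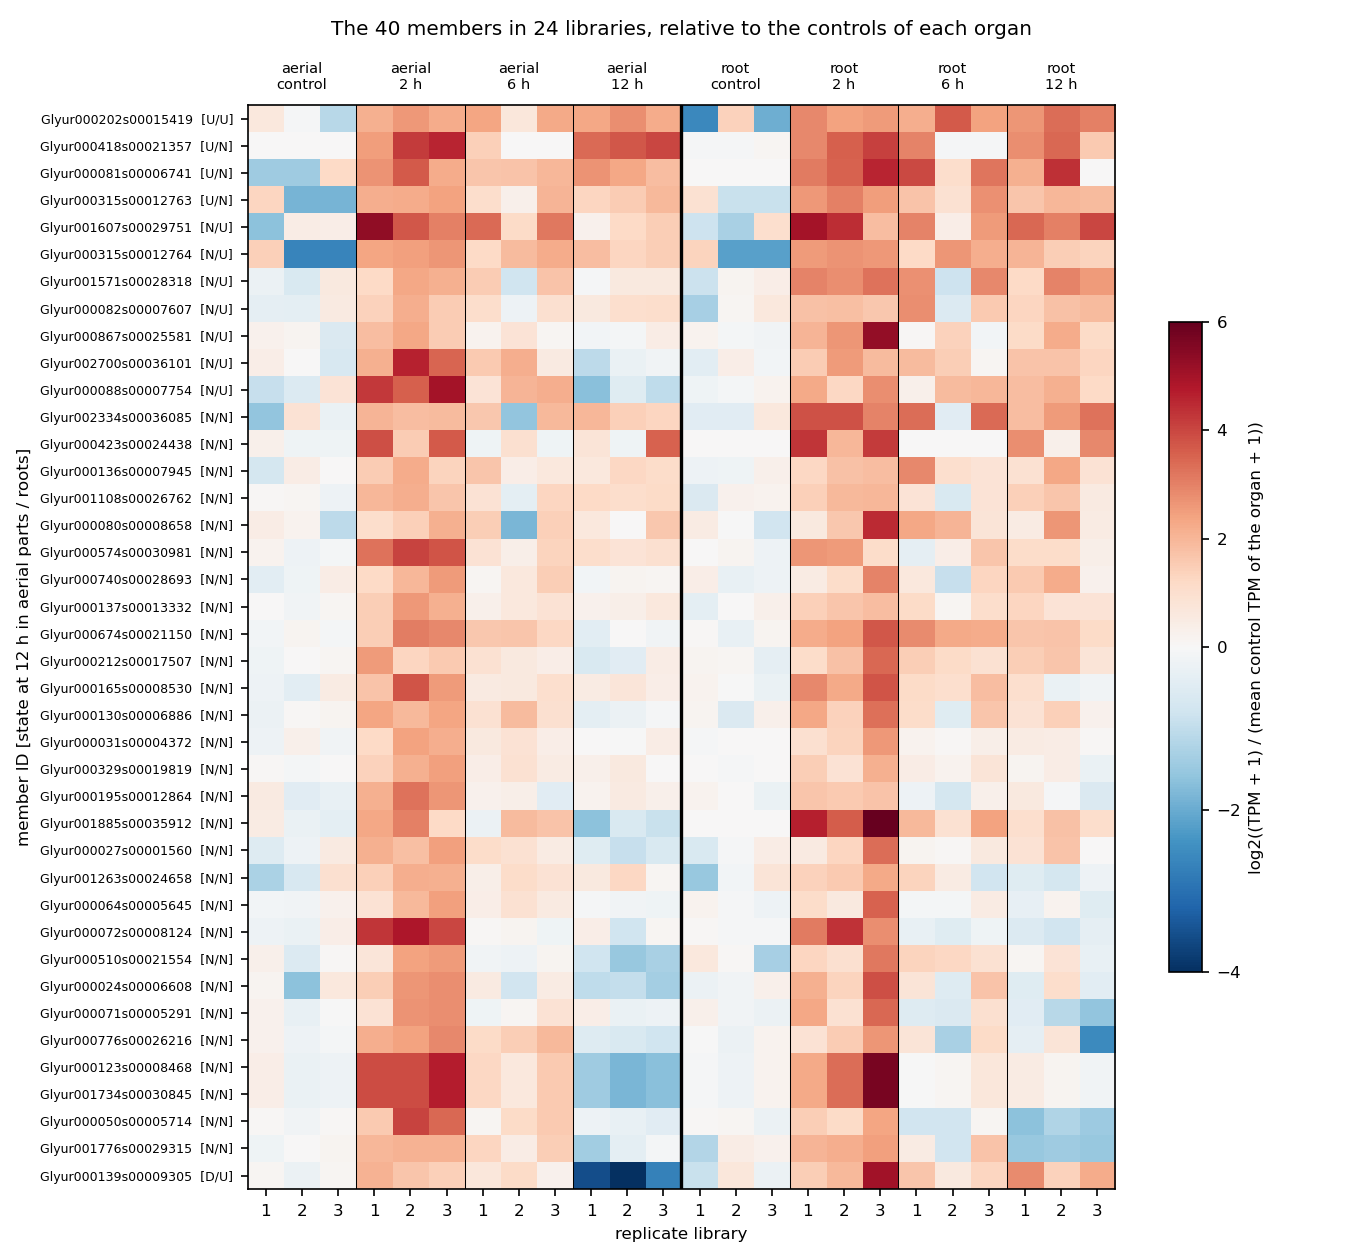
Levels of the 40 IDs (one per line, with the state at 12 h in aerial parts and roots in brackets) in the 24 libraries (columns, grouped by organ and time), as log2 of TPM + 1 over the mean control TPM + 1 of the same organ; red is above the controls and blue below. The 2 h columns are red throughout because the rule chose them, while the 12 h columns of aerial parts hold more blue cells than those of roots.

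The change from 6 h to 12 h uses neither the controls nor the 2 h libraries, so it is independent of the choice of IDs apart from the shared estimate of spread. That estimate includes the control and 2 h libraries, which the rule required not to overlap. Such a choice can favour IDs of small spread and so favour calls. In aerial parts 9 of the 40 IDs fell from 6 h to 12 h (limma on log2(TPM + 1), Benjamini-Hochberg adjusted p under 0.05 over 15744 genes), where 0.953% of all genes tested fell. One ID rose, where 0.527% of all genes did. With only the 6 h and 12 h libraries in the fit, 5 of the 40 fell and 1 rose. Over the 15458 genes tested in that fit, 82 fell and 42 rose. The 9 IDs, which carry 8 distinct profiles, are 22.5% of the 40, and their log2 fold changes ran from -4.28 to -1.47 with a median of -2.15. Over all 40 the median was -0.36, against 0.02 over all genes tested, and 28 of the 40 were negative. The other 12 were positive, where 51.2% of all genes tested were. At an unadjusted p under 0.05 limma gave 1 of the 40 higher (7.33% of genes tested) and 13 lower (6.02%). All 3 libraries at 12 h lay below all 3 at 6 h for 15 of the 40 (9.08% of all genes tested) and above for 1 (12.8%).

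Glyur000139s00009305 fell furthest. In aerial parts it stood at 69.86, 99.41 and 52.1 TPM at 6 h and at 2.82, 0.96 and 5.89 TPM at 12 h. The log2 fold change was -4.28 (SE 0.40, adjusted p = 0.000818 by limma). The groups do not overlap, and the 12 h libraries also lay below the controls, at 47.2, 37.07 and 47.58 TPM. The identical pair Glyur000123s00008468 and Glyur001734s00030845 fell from 7.71, 4.74 and 9.84 TPM to 0.38, 0.04 and 0.15 TPM (-2.79, SE 0.34, limma adjusted p = 0.00271). The one ID that rose, Glyur000418s00021357, was listed at 1.7, 0 and 0 TPM at 6 h and stood at 9.7, 12.17 and 15.25 TPM at 12 h (3.24 with an SE of 0.54, limma adjusted p = 0.0153, a size that depends on the pseudocount). At 2 h it had stood at 4.77, 17.06 and 22.83 TPM, so its values were high, low and high again, while it was listed at 0 in all 3 controls. Its call was lost without replicate 3 at 6 h (limma adjusted p = 0.0534) and without replicate 2 (0.0761) or replicate 3 (0.0738) at 12 h.

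The count of aerial IDs that changed from 6 h to 12 h depended on single libraries. With all libraries it was 10, and 83 genes in all were called higher and 150 lower. It was 5 without replicate 3 at 6 h or replicate 1 at 12 h, and 4 without replicate 2 or replicate 3 at 12 h. Over all genes these 4 settings gave 18 to 43 higher and 62 to 107 lower. Without replicate 2 at 6 h, which correlated least with its partners, 7 IDs were called, 6 of them lower. Of the 23 IDs that the rule also gives without root replicate 3 at 2 h, 5 fell and none rose in this test (limma; the 23 were trimmed after their values were seen).

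In roots no ID of the 40 changed from 6 h to 12 h by limma's adjusted threshold, while calls over the 16138 genes tested amounted to 0.0062% higher and 0.0744% lower. With the p left unadjusted (under 0.05), 1 of the 40 was higher (3.72% of all genes) and 4 were lower (5.53%). The median log2 fold change was 0.08, against 0 over all genes, and 21 were positive and 19 negative (50% of all genes were positive). The lowest p belonged to Glyur001776s00029315, which stood at 3.28, 0.8 and 8.98 TPM at 6 h and at 0.06, 0.14 and 0.07 TPM at 12 h, a difference of -1.96 (SE 0.59, adjusted p = 0.301 by limma). Next came Glyur000050s00005714, with 15.19, 14.97 and 28.49 TPM at 6 h and 7.81, 10.96 and 8.97 TPM at 12 h, a difference of -0.95 (SE 0.34, adjusted p = 0.408 by limma). For both, the libraries of the 2 times do not overlap. Over the 40, all 3 root libraries at 12 h lay below all 3 at 6 h for 5 (7.66% of genes) and above for 2 (7.31%). The 9 IDs that fell in aerial parts had root log2 fold changes between -1.96 and 0.98, of which 5 were negative. The identical pair, at -0.09, gives 2 of these 5, and it entered the root tests only through its 2 h libraries, since its mean over the other 9 root libraries was 0.286 TPM. The count in roots stayed at 0 when each of the 6 libraries compared was left out in turn and without root replicate 3 at 2 h.

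**Figure D3:**
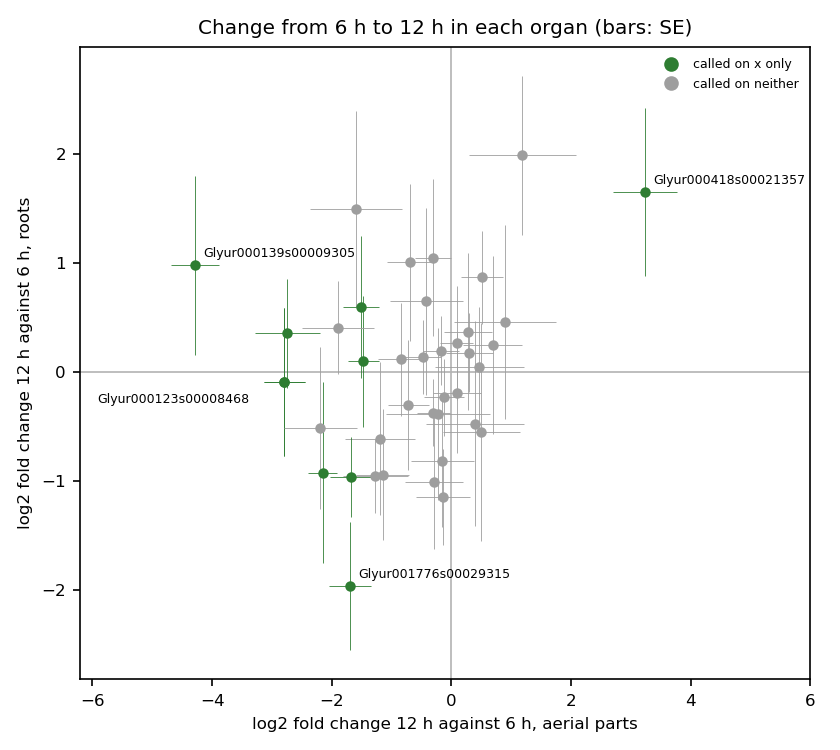
Log2 fold change of 12 h against 6 h on log2(TPM + 1) for the 40 IDs, aerial parts on the x axis and roots on the y axis, with bars for the SE; green points passed limma's adjusted threshold in aerial parts and none passed in roots. The green points lie between -4.28 and -1.47 on the x axis, except for Glyur000418s00021357 at 3.24.

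The difference between organs in the change from 6 h to 12 h, tested as roots minus aerial parts in the fit of all 24 libraries, was called for 1 of the 40 IDs as higher (0.209% of 16718 genes) and for none as lower (0.126% of genes). At an unadjusted p under 0.05 limma gave 8 higher (3.74% of genes) and 0 lower (3.72%). The ID was Glyur000139s00009305 (5.26 on the log2 scale, SE 0.96, limma adjusted p = 0.0141). In roots it stood at 28.67, 13.1 and 21.8 TPM at 6 h and at 65.44, 23.89 and 43.37 TPM at 12 h. The call was lost with the library numbers that both organs share as a block (5.26, limma adjusted p = 0.0786), without aerial replicate 2 at 12 h (4.80, 0.0572) and without replicate 2 of both organs at 6 h (4.73, 0.104). With the block 2 other IDs were called, Glyur000088s00007754 (3.10, SE 0.35, limma adjusted p = 0.0149) and Glyur001607s00029751 (3.10, SE 0.48, limma adjusted p = 0.0457), of which Glyur000088s00007754 is named here after its values were seen. With root replicate 3 at 2 h left out, or with only the 12 libraries of 6 h and 12 h in the fit, 3 IDs were called, namely Glyur000139s00009305 and the identical pair. The difference between organs in the change from control to 12 h, added after seeing the data, was called for Glyur000139s00009305 alone (0.682% of genes were called higher and 0.473% lower).

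The comparisons with controls that follow reuse the control libraries by which the 40 were chosen. Low controls favoured an ID's choice and favour higher values here, so the shares over all genes, which were not so chosen, are printed as background and nothing is read from the difference. At 6 h the aerial levels of most of the 40 lay above these controls without passing the test. No ID was called by limma in either direction, and 0% of all genes tested were. At an unadjusted p under 0.05, 16 of the 40 were higher (4.01% of all genes) and 0 lower (7.45%), and all 3 libraries at 6 h lay above all 3 controls for 19 (4.12% of all genes) and below for 0 (9.65%). The median log2 fold change was 0.88, against -0.09 over all genes. The lowest p was that of Glyur000776s00026216, which stood at 71.35, 51.92 and 56.81 TPM in controls and at 133.81, 166.85 and 233.22 TPM at 6 h (1.53 with an SE of 0.24, limma adjusted p = 0.151), followed by Glyur000130s00006886, with 26.71, 32.66 and 34.99 TPM and 60.53, 118.66 and 61.6 TPM (1.26, SE 0.26, limma adjusted p = 0.226). For both, the groups do not overlap. Leaving out aerial control replicate 1 or 3 gave 1 call each. Over all genes 2 were called higher and 1 lower without replicate 1, and 4 and 4 without replicate 3.

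At 12 h in aerial parts 3 of the 40 were called higher than controls (1.2% of all genes) and 3 lower (1.56%), again against the controls that chose the IDs. At an unadjusted p under 0.05 limma gave 10 higher (8.83% of genes) and 5 lower (12.5%). All 3 libraries at 12 h lay above all 3 controls for 10 (13% of genes tested) and below for 7 (15.9%). The median log2 fold change of the 40 was 0.14, against -0.06 over all genes, and the means of 17 IDs lay below their control means. The log2 fold change was positive for 22 of the 40, where it was for 45.4% of all genes. Glyur000418s00021357, listed at 0 in the controls, stood at 9.7 to 15.25 TPM (limma adjusted p = 0.0073). Glyur000081s00006741 was listed at 0, 0 and 5.06 TPM in controls and stood at 16.55, 12.49 and 8.69 TPM (2.85, SE 0.64, limma adjusted p = 0.0427). Its call was lost without control replicate 1 or 2 or any library at 12 h, with limma adjusted p from 0.0664 to 0.145. A pseudocount of 0.1 (limma adjusted p = 0.0559) or 5 (0.0539) also lost it. So did a fit without a filter (0.0748) and one of the 12 h and control libraries alone (0.0908). Also higher was Glyur000202s00015419 (2.61, SE 0.49, limma adjusted p = 0.0277), whose levels are given with the roots. Lower were Glyur000139s00009305 (-3.58, SE 0.40, limma adjusted p = 0.00234) and the identical pair (-1.61, SE 0.34, limma adjusted p = 0.0345). The pair's call was lost without control replicate 1 or 3 or any library at 12 h (limma adjusted p from 0.0662 to 0.135) and with a pseudocount of 5, where its log2 fold change was -0.56. It was also lost without a filter (limma adjusted p = 0.0557) and with only the 12 h and control libraries fitted (0.0607). Of the 6 calls, 2 were left without any one of the libraries at 12 h, and 3 without control replicate 3. Over all genes the calls fell as well, from 189 higher and 245 lower. They were 22 to 49 higher and 57 to 92 lower without 1 library at 12 h. Leaving out control replicate 3 gave 81 and 96. Leaving out control replicate 2 gave more, 300 and 552, with 5 of the 40 called. Of the 23 IDs that the rule also gives without root replicate 3 at 2 h, 1 was higher and 1 lower.

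In roots Glyur000674s00021150 was the one ID called at 6 h against the controls, which had also served to choose it. It went from 13.66, 10.44 and 14.66 TPM to 99.67, 67.08 and 64.17 TPM (2.47, SE 0.37, limma adjusted p = 0.0262), where 0.322% of all genes were called higher and 0.235% lower. With an unadjusted p under 0.05, 15 of the 40 were higher (7.39% of genes) and 0 lower (9.49%). All 3 libraries lay above all 3 controls for 12 (7.16% of genes) and below for 1 (11.3%). The call of Glyur000674s00021150 was lost without control replicate 1 (limma adjusted p = 0.0933) or 2 (0.074) and without replicate 1 at 6 h (0.0827). It was also lost without a filter (limma adjusted p = 0.0501) and with only the 6 h and control libraries fitted (0.139). The number of IDs called was 6 without root replicate 2 at 6 h, 2 without replicate 3 and 0 without replicate 1. Over all genes the calls moved too, from 52 higher and 38 lower to 368 and 422 without replicate 2, 222 and 57 without replicate 3, and 7 and 5 without replicate 1.

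At 12 h in roots 3 of the 40 were called higher than controls (1.85% of all genes) and 1 lower (3.09%), with the same root controls that chose the IDs. With an unadjusted p under 0.05, limma gave 17 higher (9.75% of genes) and 2 lower (14%). The median log2 fold change was 1.26, against -0.06 over all genes, and 32 of the 40 were positive (46.4% of all genes were). All 3 libraries lay above all 3 controls for 21 (13.8% of all genes) and below for 4 (17.8%). Glyur000202s00015419 was listed at 0, 14.53 and 0.57 TPM in controls and stood at 36.94, 60.43 and 48.06 TPM at 12 h (4.07, SE 0.82, adjusted p = 0.0248 by limma). It was the one ID in state U at 6 h and 12 h in both organs, with 47.39, 14.12 and 44.5 TPM at 6 h and 46.4, 64.8 and 43.49 TPM at 12 h in aerial parts, where its controls held 13.99, 8.18 and 3.42 TPM. Glyur001607s00029751 stood at 113.47, 83.68 and 166.22 TPM (3.85, SE 0.90, limma adjusted p = 0.0383). Glyur000050s00005714 fell from 27.65, 29.08 and 22.48 TPM to 7.81, 10.96 and 8.97 TPM (-1.42, SE 0.34, limma adjusted p = 0.04). Also higher was Glyur000674s00021150 (1.51, SE 0.37, limma adjusted p = 0.0431).

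These 4 root calls were not stable. Without any one of the libraries at 12 h none of the 40 was called, while 2 were without control replicate 1, and 1 each without control replicate 2 or 3. Over all genes the calls fell as well, from 298 higher and 499 lower. They were 35 to 133 higher and 57 to 256 lower without 1 library at 12 h. With 1 control left out they were 87 to 192 higher and 119 to 356 lower. Glyur000202s00015419 lost its call without control replicate 1 or 3 or any library at 12 h (limma adjusted p from 0.0513 to 0.103) and Glyur001607s00029751 without control replicate 1 or 2 or any library at 12 h (0.0771 to 0.121). Glyur000202s00015419 also lost it with only the 12 h and control libraries fitted (limma adjusted p = 0.0645). Without a filter Glyur001607s00029751 lost it too (limma adjusted p = 0.0706). Glyur000050s00005714 lost it without any one of the 6 libraries (0.0607 to 0.119), after median-of-ratios scaling (0.0621) and after division by the listed total (0.0929). The calls were 4 higher and 0 lower after median-of-ratios scaling and 5 higher and 0 lower after division by the listed total, where all genes together had a median of 0.14 instead of -0.06.

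**Figure D4:**
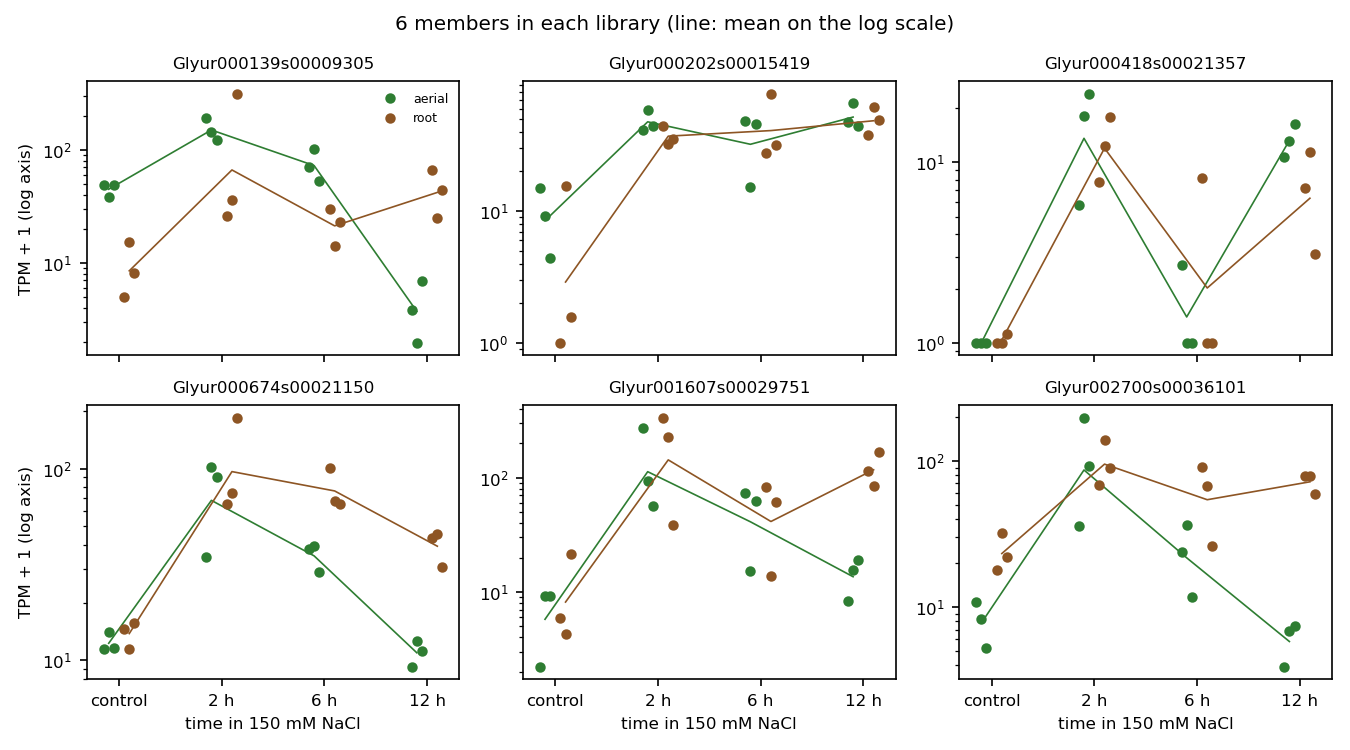
TPM + 1 on a log axis for 6 of the 40 IDs in each library (points), by time in 150 mM NaCl, aerial parts in green and roots in brown, with lines through the mean on the log scale. Glyur000139s00009305 ends at 0.96 to 5.89 TPM in aerial parts and 23.89 to 65.44 TPM in roots at 12 h, and Glyur000202s00015419 stays above its controls in both organs, though only just in aerial replicate 2 at 6 h (14.12 TPM against a highest control of 13.99 TPM).

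The rule sets no order between the organs, so their levels could be compared at 6 h and 12 h in the fit of all 24 libraries. At 12 h, 11 of the 40 IDs were higher in roots (27.5%, where 18.1% of 16718 genes were) and 4 were lower in roots (10%, where 13.8% of genes were). At 6 h, 2 were higher in roots (5%, against 16.3% of genes) and 6 lower (15%, against 12.3%). The same 2 were higher in roots at both times, 9 were higher at 12 h alone, and 4 were lower at both. Shares of all genes with such joint calls were not computed, so these counts cannot be called particular to the 40. The median log2 difference of the 40, roots minus aerial parts, was 0.18 at 6 h and 0.39 at 12 h, against 0.20 and 0.18 over all genes. Of the 9 IDs that fell in aerial parts from 6 h to 12 h, 4 were among those higher in roots at 12 h and 2 among those lower. Both calls use the aerial libraries at 12 h, so overlap of falls with higher root levels is partly built in. Nothing is read from it.

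Glyur002700s00036101 had the largest difference towards roots at 12 h, with 78.08, 78.22 and 58.22 TPM in roots and 2.91, 5.81 and 6.36 TPM in aerial parts (3.63, SE 0.55, adjusted p = 3.41e-05 by limma). At 6 h the levels were 89.49, 65.8 and 25.33 TPM in roots and 22.8, 35.53 and 10.76 TPM in aerial parts, with overlap. Glyur000139s00009305 followed (3.49, SE 0.68, limma adjusted p = 0.000501). At 6 h its aerial libraries lay above its root libraries, and at 12 h the order was the other way round, with no overlap at either time. Its difference at 6 h was not called (-1.77, SE 0.68, limma adjusted p = 0.0587). Glyur000674s00021150 was higher in roots at 6 h, with 36.89, 38.56 and 27.77 TPM in aerial parts (1.12, SE 0.37, limma adjusted p = 0.0284), as was Glyur000329s00019819, with 44.2, 37.85 and 54.73 TPM in roots and 20.65, 29.77 and 22.19 TPM in aerial parts (0.89, SE 0.30, limma adjusted p = 0.0296).

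Among the IDs lower in roots at both times, Glyur001108s00026762 stood at 175.97, 72.8 and 234.99 TPM in aerial parts and 30.44, 10.64 and 30.26 TPM in roots at 6 h (-2.69, SE 0.41, adjusted p = 3.94e-05 by limma). At 12 h the levels were 217.52, 197.69 and 210.35 TPM and 47.35, 55.13 and 24.94 TPM (-2.34, SE 0.41, limma adjusted p = 0.000161). Glyur000776s00026216 held 32.35, 6.89 and 41.97 TPM in roots at 6 h, far below its aerial libraries (-2.96, SE 0.65, limma adjusted p = 0.00157). Glyur001776s00029315 stood at 2.45, 5.82 and 7.42 TPM in aerial parts at 12 h, above its root libraries (-2.42, SE 0.50, limma adjusted p = 0.000819). In each of these 3 IDs root replicate 2 was the lowest root library at 6 h, and at 12 h aerial and root libraries of Glyur000776s00026216 did not overlap.

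The counts at 12 h ran from 12 to 14 with each of the 6 libraries left out, below the count with all libraries. Without root replicate 3 at 2 h in the fit the count was 17 (12 higher, 5 lower in roots). With the shared library numbers as a block it was higher still, as given in the last section. At 6 h the counts with 1 library left out ran from 6 to 11. Both IDs higher in roots were lost without aerial replicate 1 or 3 or root replicate 1 (limma adjusted p from 0.0541 to 0.119), and Glyur000329s00019819 also without root replicate 3 (0.113). Scaling bore on the 6 h split, with 0 higher and 8 lower in roots after median-of-ratios scaling and 5 higher and 6 lower after division by the listed total. These scalings put the median of all genes at 0.02 and 0.30, where it was 0.20 as deposited. Of the 23 IDs that the rule also gives without root replicate 3 at 2 h, 6 were higher and 3 lower in roots at 12 h.

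**Figure D5:**
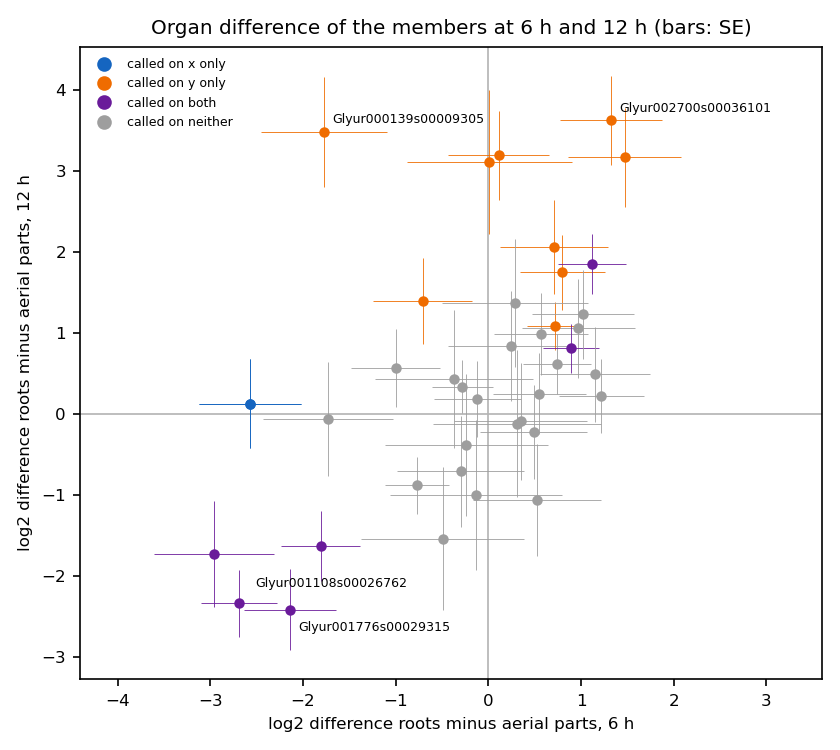
Log2 difference of roots minus aerial parts on log2(TPM + 1) for the 40 IDs at 6 h (x axis) and 12 h (y axis), with bars for the SE and colours for limma's adjusted calls at 6 h alone, 12 h alone, both or neither. The 9 orange points were called at 12 h alone, all towards roots, and reach 3.63 on the log2 scale. The share of all genes called in this way was not computed.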

How the data were processed

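Total RNA of 24 libraries was sequenced. The authors deposited a TPM table for each library, per the file headers. Tools named in the submitters' processing notes are HISAT2, RSEM, StringTie, fastp, edgeR and DESeq2. Their roles and versions, the genome and the annotation have no entry there. The 38135 rows of each file were summed to 34445 IDs. The listed TPM summed to 476313 to 496981 per aerial control and 431934 to 464212 per aerial salt library. In roots it was 473035 to 510545 per control and 391447 to 427641 per salt library. The files thus list part of what was scaled, and a change in the unlisted part moves every listed value. In both organs every salt library had a lower listed total than every control, which bears on each comparison with controls. TPM keeps no depth, so counting error could not be computed.

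The 40 IDs, the comparisons and the rules for naming IDs were chosen with earlier results of these data known. IDs were named if they had the largest called changes per comparison (or the lowest p where none was called), the highest 2 h levels or ratios, the highest level of each 12 h state, lay beside the threshold or were neighbours in number. Planned gene lists were left out, since IDs carry no names. log2(TPM + 1) was tested with limma 3.58.1 (R 4.3.3, mean-variance trend, two-sided) on genes averaging 0.5 TPM or more; all 40 IDs passed this filter, 2 of them in roots only through the 2 h libraries that chose them. Each organ's 12 libraries were fitted together, and all 24 for organ comparisons. The pseudocount shrinks changes of low genes. The pipeline was tested on simulated data. Aerial and root salt libraries share numbers in their titles; the residuals of the 9 pairs correlated at 0.20 to 0.57 across genes, each best with its own number, so the numbers were tried as a block. Tables were made with Python 3.11.15.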

Additional observations from a re-analysis of the deposited data

Results flagged for a closer look

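Glyur000139s00009305 was picked out because its change over time in the salt libraries, and from control to 12 h, differed between organs by a test of the difference itself. The change from 6 h to 12 h differed by 5.26 on the log2 scale, roots minus aerial parts (SE 0.96, limma adjusted p = 0.0141; 0.0786 with the shared library numbers as a block). The change from control to 12 h, which was added once results were known and shares its controls with the choice of IDs, differed by 5.89 (SE 0.96, limma adjusted p = 0.00326), and stayed between 5.42 and 6.33 with each library left out in turn, with no call lost. This difference was not run with the block, since controls carry no shared number. All 3 aerial libraries at 12 h lay below all 3 aerial controls, and all 3 root libraries above all 3 root controls. In roots alone neither change of this ID was called. From control to 12 h it was 2.3 (SE 0.82, limma adjusted p = 0.126). From 6 h to 12 h it was 0.98 (SE 0.82, limma adjusted p = 0.759).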

How the results depend on the processing

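The number of IDs given by the rule was 94 at 2-fold and 14 at 5-fold, and 29 to 57 with each control or 2 h library left out in turn. For 12 h against 6 h in aerial parts, 6 IDs were called without a filter and 6 with only the groups compared, and 4 to 8 with 1 library left out. Against controls in aerial parts, left-out libraries gave 0 to 1 at 6 h and 2 to 5 at 12 h, and 12 h had 3 with a pseudocount of 5 and 3 without a filter. Against controls in roots, 6 h had 2 with a pseudocount of 0.1, 0 without a filter, 0 with only the groups compared and 0 to 6 with 1 library left out. At 12 h the roots had 7 with a pseudocount of 0.1, 2 with a pseudocount of 5, 1 without a filter, 7 with only the groups compared and 0 to 2 with 1 library left out. For the organ difference in the change from 6 h to 12 h, 3 were called with only the groups compared, 2 with the replicate block, 3 without root replicate 3 at 2 h, 0 without replicate 2 of both organs at 6 h and 0 to 1 with 1 library left out. Without the block this count was 1, and over all genes 35 were called higher and 21 lower. Calls over all genes were 27 and 24 with only the groups compared and 24 and 22 with the block. They were 40 and 28 without root replicate 3 at 2 h, and 29 and 20 without replicate 2 of both organs at 6 h. The block gave 11 against 8 IDs for the organs at 6 h and 20 against 15 at 12 h. Calls over all genes rose with the block too. At 6 h they went from 2729 higher and 2063 lower in roots to 3260 and 2359. At 12 h they went from 3028 and 2300 to 3622 and 2651. Of the 9 results on named IDs run with the block, 8 kept their call and 1, the change between organs of Glyur000139s00009305, lost it. No named ID changed sign under any alternative run. Left-out libraries also moved the calls over all genes, as given above for several comparisons within an organ. The causes of these shifts were not tested. Unknown depth limits statements on IDs listed at 0.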
